A study of Mus musculus with 20 samples.

Results

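The kidney of wild-type (WT) mice was compared with 4 other WT tissues by bisulfite sequencing of mRNA. The kidney was represented by 2 WT libraries of the 20 libraries in the study, and small intestine, liver, spleen and heart by 8 WT libraries, 2 each. The listed cytosines were those that at least 1 library had passed as methylated, and the sites described here were taken from them by read coverage. Of 32378 listed cytosines, 3098 had at least 20 reads in all 10 WT libraries, and 990 of these also had the 10 unconverted reads and the mean level of 0.01 needed for a test. Sites with at least 20 reads in both kidney libraries and fewer than 20 in each of the 8 others are called kidney-only. They made up 1.12% of the 11925 sites covered in both kidney libraries, and both libraries had 0 unconverted reads at 101 of them, 1 library at 15, and neither at 17.

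The modification m5C (5-methylcytosine) was measured on poly(A) RNA of WT mice and of knockout (KO) mice in which exons 3 and 4 of the RNA methyltransferase gene Nsun6 had been deleted. The mice were C57BL/6J females, 8 weeks old. The WT libraries carried no other allele or treatment, and the 10 KO libraries of the same tissues were used only for values beside the WT ones. The sources do not say whether both libraries of a tissue came from different animals, so p-values measure the spread between libraries, which may be technical.

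Bisulfite turns unmethylated cytosine into a base that is read as T, whereas m5C is still read as C. The level of a site is the fraction of its reads that carry C. NSUN2 and NSUN6 are the methyltransferases known to place most m5C on mRNA. NSUN6 prefers a CTCCA motif, with the methylated base first, and NSUN2 a G-rich stretch behind the cytosine, searched here as CNGGG. The kidney reabsorbs solutes along its tubules. Proximal tubule cells carry many transporters and mitochondria, and loop and distal cells set the final salt balance.

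The sequences below are the reference windows of 21 bases around the sites that carry the results, read 5′ to 3′ on the transcribed strand of mm10, with the site at position 11. Capitals mark the cytosine, or the motif that starts at it. The first set holds protein-coding sites at which kidney lay below heart.
Rps21, chr2:180257793-180257813, plus strand: caagcaaccgCatcattgctg
Rpl23, chr11:97781812-97781832, minus strand: ctgtgatcaaCtgtgcagaca
Rplp0, chr5:115560971-115560991, plus strand: cactgagattCgggatatgct
Rps9, chr7:3706693-3706713, plus strand: cctggactctCagaagcacat
Atp5b, chr10:128089029-128089049, plus strand: gtgtcccgggCaagaaagata
Idh3b, chr2:130283931-130283951, minus strand: aggaagtgttCaaggtgaata
Sdhb, chr4:140979025-140979045, plus strand: ggtctgaatcCGGGGaaagcg
Uqcc2, chr17:27122780-27122800, minus strand: gaagaaactgCaggagaagtt

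The second set holds the sites with high kidney levels that all tissues covered.
Ccdc107, chr4:43495346-43495366, plus strand: acagctggtgCagctgacaca
Oaz1, chr10:80829094-80829114, plus strand: ggtgcttcttCgagctgaatg
Rela, chr19:5647573-5647593, plus strand: ggtgctttcgCaggagcatta
Tcn2, chr11:3917346-3917366, minus strand: taccactgctCTGGGaccagg

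The third set holds CTCCA sites methylated in kidney, which share the 5 capital bases and no other stretch.
Nat8f3, chr6:85733087-85733107, minus strand: tgttcagataCTCCAtggaat
Ephx2, chr14:66110230-66110250, minus strand: acaggaagtcCTCCAaagcct
Cux1, chr5:136250580-136250600, minus strand: gtctgattctCTCCAacaaga
Apob, chr12:8016330-8016350, plus strand: agcagttccaCTCCAatctgc
Phyh, chr2:4928731-4928751, plus strand: atcaacaagcCTCCAgatgtt

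The last set holds kidney-only sites in transporter and other transcripts without the CTCCA motif.
Slc13a3, chr2:165405788-165405808, minus strand: tcagagaaaaCGGGGgcaaag
Slc22a12, chr19:6537758-6537778, minus strand: aggcactcatCgggattgtgg
Gm10681, chr3:98557306-98557326, minus strand: cctgccagggCatgtctgctg

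The kidney libraries held 1247930 and 3252220 reads over the listed sites, and the other WT libraries between 1444719 and 2660439. Without molecular identifiers, PCR copies are counted too, and a limit given for 0 unconverted reads is one of counting alone. Proximal tubule marker genes took 5.84% and 4.28% of the reads over listed sites in kidney and between 0.0796% and 3.48% elsewhere. The other kidney lists did not separate kidney in this way. Loop and distal genes took 1.73% and 0.630% in kidney and between 0.0485% and 1.35% elsewhere. Collecting duct genes took 0.0209% and 0.00999% in kidney and up to 1.20% elsewhere, and glomerulus genes 0.0220% and 0.00676% and up to 0.0559%. Heart marker genes took 0.00224% and 0.00154% in kidney, against 3.36% and 3.42% in heart. In bulk tissue, fewer cells of a type and less RNA per cell cannot be told apart. The pooled level over all listed sites was 0.673% in both kidney libraries, against 0.592% to 5.35% elsewhere. Among the 990 tested sites, 24 reached a level of 0.1 in each kidney library, but 303 did so in liver replicate 2, 186 in spleen replicate 2 and 351 in heart replicate 1. Heart replicate 2 had 141 such sites, liver replicate 1 had 107, and the other 3 libraries 16 to 29. Each library was left out in turn in the comparisons below.

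Kidney against the mean of the 4 other tissues gave 1 call. With edgeR, 0 of 990 sites were called higher in kidney, with 2 at an unadjusted p under 0.05, and 1 site (0.101%) was called lower. This was a coding site in exon 4 of Rps14, a protein of the small ribosomal subunit, at chr18:60776976. Its level was 0.0132 and 0.0170 in kidney, 0.124 and 0.0919 in heart, and between 0.0121 and 0.0253 in the other 6 libraries. Kidney thus overlapped small intestine and liver, and lay below both spleen and both heart libraries. The log2 odds ratio was -0.95 (edgeR adjusted p = 0.000878). The call was lost without either kidney library and without small intestine replicate 1, and 2 sites were called without heart replicate 1.

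Against single tissues, the kidney differed most often from heart. In heart, 10 of 990 sites (1.01%) were higher than in kidney and 0 lower, with 23 and 0 at an unadjusted p under 0.05. Of these, 6 lay in transcripts of cytosolic ribosomal proteins and 2 in nuclear transcripts of mitochondrial enzymes. The remaining 2, in Cd74 and Ahcy, each rested on 1 heart library.

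Rps14 carried 2 of the 10 sites. At the site above, heart was 7.16 times as high as kidney (log2 odds ratio -2.98, edgeR adjusted p = 9.3e-30). At the second, in exon 5 at chr18:60777849, the levels were 0.0219 and 0.0182 in kidney and 0.110 and 0.102 in heart (log2 odds ratio -2.54, edgeR adjusted p = 1.15e-20). The 6 libraries of the other tissues lay between 0.0167 and 0.0265 there, so kidney sat within their range and heart above it.

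Rps21, also of the small subunit, had levels of 0.0208 and 0.0238 in kidney and 0.117 and 0.0966 in heart (log2 odds ratio -2.39, edgeR adjusted p = 1.8e-15). Rps9, of the same subunit, had 0.0624 and 0.0644 in kidney and 0.198 and 0.195 in heart (log2 odds ratio -1.85, edgeR adjusted p = 9.08e-05). At neither site did the groups overlap. At Rps9 both kidney libraries lay above both small intestine libraries, at 0.0442 each, and both spleen libraries, at 0.0321 and 0.0381.

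Rpl23, a protein of the large subunit, had the highest levels among the 10 sites. They were 0.139 in both kidney libraries and 0.428 and 0.386 in heart, from 4039 to 16031 reads each, and heart was 2.93 times as high (log2 odds ratio -2.09, edgeR adjusted p = 9.18e-06). Rplp0, of the ribosomal stalk, had 0.0188 and 0.0144 in kidney and 0.213 and 0.147 in heart, 10.8 times as high (log2 odds ratio -3.69, edgeR adjusted p = 3.02e-05). Rpl23 and Rplp0 were thus ordered alike at levels that differed several times over.

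Atp5b encodes the catalytic beta subunit of ATP synthase, which makes ATP at the inner mitochondrial membrane. Its site in exon 9 had a level of 0.0128 and 0.0119 in kidney and 0.0965 and 0.0818 in heart (log2 odds ratio -2.96, edgeR adjusted p = 1.72e-06). The other 6 libraries ranged from 0.00239 in small intestine to 0.0220 in liver, on both sides of kidney.

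Idh3b, a subunit of the NAD-dependent isocitrate dehydrogenase of the citrate cycle, was called in 3 comparisons. The site in exon 3 had a level of 0.0143 and 0.0101 in kidney and 0.109 and 0.0827 in heart (log2 odds ratio -3.09, edgeR adjusted p = 0.00601). Small intestine had 0 of 485 and 0 of 336 reads, which together allow a level of up to 0.00365, and kidney was called higher (edgeR adjusted p = 0.038). Spleen had 0.00332 and 0, and kidney was called higher there too. Kidney thus lay between heart and both of these tissues, and its range crossed that of liver, at 0.0153 and 0.00893. Idh3b was the 1 site of 990 (0.101%) called higher in kidney in each of the comparisons with small intestine and spleen, where 4 and 2 sites had an unadjusted p under 0.05. The Idh3b calls were not stable when 1 library was left out. The heart call was kept in 6 of 10 such fits and lost without either kidney or either heart library (highest edgeR adjusted p = 1), and it was lost without the filter on low levels (edgeR adjusted p = 0.182). The small intestine call was kept in 7 of 10, lost without kidney replicate 1 and without either small intestine library, and the spleen call in 4 of 10.

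**Figure D1:**
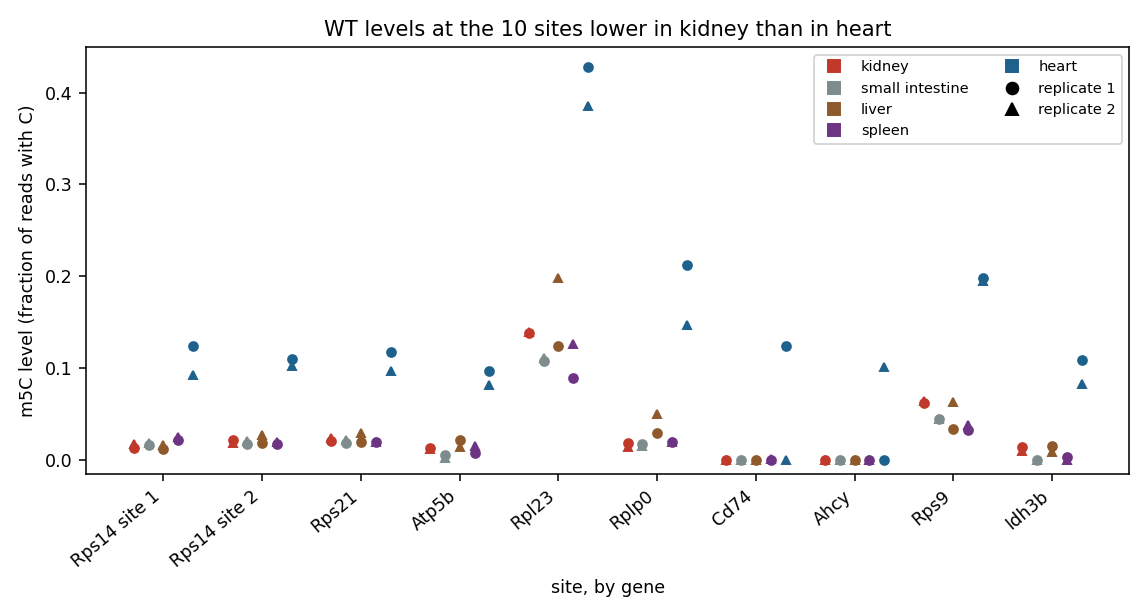
m5C level (fraction of reads) (vertical axis) of the 10 sites called lower in WT kidney than in WT heart, with 1 point per library, colours for tissues and shapes for replicates. Both heart points lie above all 8 others at every site but those of Cd74 and Ahcy, where 1 heart library is at 0.

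At Cd74, the invariant chain of antigen presentation, kidney had 0 unconverted reads among 632 and 868, and heart 16 of 129 and 0 of 548. At Ahcy, which hydrolyses S-adenosylhomocysteine, kidney had 0 of 331 and 0 of 925, and heart 0 of 46 in 1 library and a level of 0.101 in the other. The spleen comparison had 2 sites (0.202%) called lower in kidney, in Idh2 and in Asl. These were of the same kind, with levels of 0.149 and 0.111 in spleen replicate 2 and 0 unconverted reads in spleen replicate 1 and both kidney libraries. Against liver, 0 sites were called in either direction, with 0 higher and 1 lower at an unadjusted p under 0.05.

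The calls depended on the model and on single libraries. Of the heart calls beside Idh3b, that of Rps9 was lost without kidney replicate 1 (edgeR adjusted p = 0.0514) and that of Ahcy without kidney replicate 2 and without liver replicate 2 (edgeR adjusted p = 0.0554 and 0.0960). Without spleen replicate 2, 19 sites were called lower than heart, and without liver replicate 1, 16. Limma on logit levels gave 0 calls in every comparison, with 12% of the sites lower than heart and 4 sites higher at an unadjusted p under 0.05. An offset for the nonconversion of each library removed all 10 heart calls where it was taken from 1374 sites that no WT library passed. In that background heart read 0.911% and 0.796% and kidney 0.160% and 0.118%. Some of those sites were listed because heart KO libraries passed them. With the 652 sites that no kidney or heart KO library passed either, chosen after seeing the data, heart read 0.0896% and 0.0812% and kidney 0.0850% and 0.0454%, and 5 heart calls were made. They were both Rps14 sites, Rps21, Cd74 and Ahcy. Both offsets divide the odds of a level by the odds of the background, whereas nonconversion adds unconverted reads to a level. The loss or keeping of calls under them therefore cannot measure the part of nonconversion. How far unconverted reads of unmethylated RNA took part in the difference was not tested.

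The choice of sites used WT levels in part, since most sites were listed because 1 library passed them. As an alternative, the test was restricted to the 177 tested sites that a KO library had passed. The WT filters on unconverted reads and mean level still applied to them, so WT values took part in this choice too. There, 25 sites (14.1%) were lower in kidney than in heart and 0 higher. The 25 included 8 of the 10 sites above, without Cd74 and Ahcy. Heart KO libraries were among those that could pass a site, so a site high in heart of both genotypes entered more easily. The spread was also estimated anew from the 177 sites, with prior degrees of freedom of 25.5 against infinite in the main fit. A change in the number of calls therefore cannot be assigned to the choice of sites alone.

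In that set, transcripts of the respiratory chain list were lower in kidney at 7 of 8 tested sites, cytosolic ribosomal proteins at 7 of 7 and the citrate cycle and fatty acid oxidation list at 2 of 4. Sdhb, the iron-sulfur subunit of complex II, had levels of 0.0189 and 0.0217 in kidney and 0.179 and 0.143 in heart (edgeR adjusted p = 6.92e-05). Uqcc2, an assembly factor of complex III, had 0.0274 and 0.0275 in kidney and 0.376 and 0.276 in heart (edgeR adjusted p = 8.86e-05). Among all 990 sites, where the spread was estimated over more sites, neither passed the test, at edgeR adjusted p-values of 0.131 and 0.355.

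Further respiratory chain members were Ndufa10, Cox7a2l and neighbouring cytosines of Cox7c. Ndufa10, a subunit of complex I, had 0.0949 and 0.0809 in kidney and 0.401 and 0.481 in heart (edgeR adjusted p = 0.0447 in the KO-passed set). The adjacent cytosines of Cox7c, a subunit of cytochrome c oxidase, had kidney means of 0.0532 and 0.0369 and heart means of 0.179 and 0.230. Kidney and heart did not overlap at any of them.

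Over the list of respiratory chain and ATP synthase genes, 1 of 12 tested sites was called lower in kidney among all 990. The median difference of kidney minus heart over the list was -0.119, and kidney was below heart at 11 sites. Over all 990 sites the median difference was -0.00698, with kidney below at 521 and above at 72. Cytosolic ribosomal proteins had 6 of 11 sites called lower and a median of -0.0860. The citrate cycle and fatty acid oxidation list had 1 of 13 called and a median of -0.000219, and translation factors and aminoacyl-tRNA synthetases 0 of 23 and -0.0788. Solute carriers, the membrane transporters, had 0 of 11 called and a median of -0.0215. These counts are descriptions of the lists.

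In the KO-passed set, against the mean of the others, 3 of 177 sites (1.69%) were called higher and 2 (1.13%) lower, and 5 (2.82%) were higher than in small intestine and 1 (0.565%) than in spleen. The call against spleen was Idh3b, and Idh3b and Atp5b were among the 5 against small intestine. The 3 higher than the mean of the others were 2 sites of Gm14414 and 1 of the pseudogene Rps19-ps2, whose reads may come from related copies. At the site of Rps19-ps2 kidney had 17 of 230 and 8 of 70 unconverted reads. Spleen replicate 1 had 41 of 296, and the other 7 libraries 0. Tests over all 990 sites called none of the 3 (edgeR adjusted p = 1 each).

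Beside the WT values, the KO libraries gave a second comparison of the same tissues. KO heart replicate 2 held 767 reads at Kap, a proximal tubule gene, and 306 of them were unconverted. Both WT heart libraries and KO heart replicate 1 had 0 reads there. At the kidney-only sites of Slc13a3 (CNGGG) and Slc22a12, KO heart replicate 2 had 34 and 27 reads. Whether kidney RNA entered this library was not tested. In the KO libraries, kidney was lower than heart at 7 of 1358 tested sites (0.515%) and higher at 0, and lower than spleen at 1 (0.0736%). Of the 10 WT sites, 8 were tested in KO, all 8 had a lower level in kidney, and 6 were called. At Rpl23, KO kidney had 0.159 and 0.165 and KO heart 0.443 and 0.376 (log2 odds ratio -1.84, edgeR adjusted p = 0.00102). Over the 552 sites covered in all 20 libraries, kidney was lower than the mean of the others at 1 site (0.181%) in WT and at 1 (0.181%) in KO. The difference of the kidney contrast between WT and KO passed the test at 0 sites with both tools. Among those sites 3 had an unadjusted p under 0.05 as higher in WT with edgeR.

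Methylated sites of the kidney were then counted by the criteria that the methods state. Each library of a tissue needed 20 reads, 2 of them unconverted, and the mean level had to reach 0.05. They were met by 154 of 11925 sites with 20 reads in both kidney libraries (1.29%), in 152 genes. In the authors' calls, 42 of the 154 were passed in both kidney libraries, 60 in 1 and 52 in neither. The levels ranged from 0.0509 to 0.445, with a median of 0.0929, and the nearest site below the limit had 0.0495. Coding exons held 70 sites, 3′ UTRs 68 and 5′ UTRs 2, and 14 lay in exons of transcripts annotated without a coding sequence, which included transcripts of the enzyme genes Dao and Nat8f3. The share in 3′ UTRs was 44.2%, against 32.4% of the covered sites.

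Over the 3098 sites that all tissues covered, kidney met the criteria at 54 (1.74%), small intestine at 43 (1.39%), liver at 57 (1.84%), spleen at 37 (1.19%) and heart at 179 (5.78%). Of the 54 kidney sites, 45 (83.3%) also met them in heart, which is 25.1% of the heart sites. The numbers shared with liver, spleen and small intestine were 28, 26 and 25, or 49.1%, 70.3% and 58.1% of those tissues' sites. Over the sites each tissue covered itself, the shares were 1.27% in small intestine, 1.68% in liver, 0.858% in spleen and 3.59% in heart, beside 1.29% in kidney. The 4 other tissues all met the criteria at 17 of the 54, and none did at 6.

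**Figure D2:**
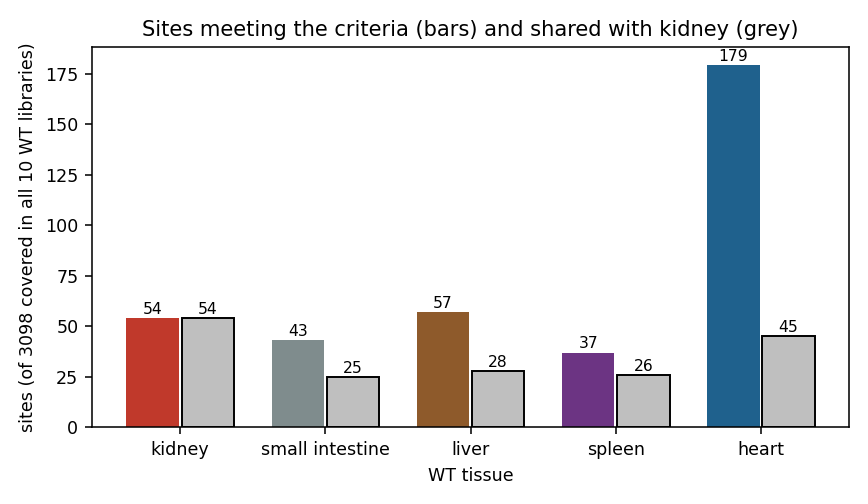
Number of sites that met the criteria in each WT tissue (coloured bars) among the 3098 sites covered in all 10 WT libraries, and the number of these that also met them in kidney (grey bars). Heart had 179 sites, of which 45 were shared with kidney, and the other tissues had between 37 and 57.

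These 54 sites were chosen for their kidney level, which favours kidney in any comparison. Kidney means were nonetheless below those of heart at 43 of the 54, by a median of 0.0961, and both kidney libraries lay below both heart libraries at 34. Against small intestine and spleen, kidney was above at 45 sites each. Against liver it was above at 27 and below at 27.

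**Figure D3:**
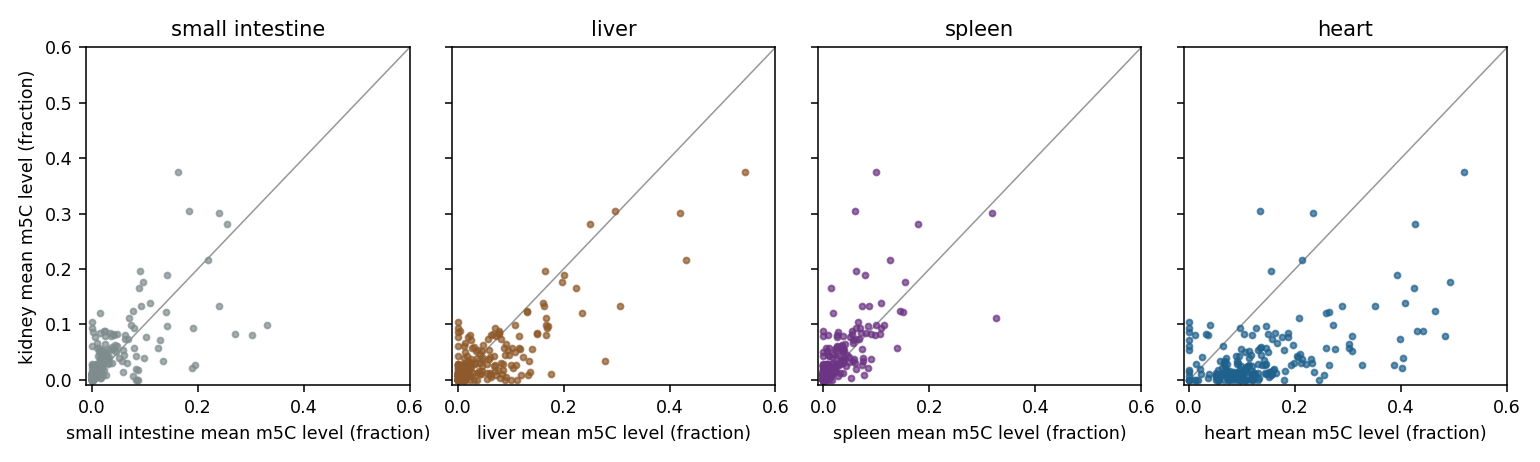
Mean m5C level (fraction of reads) in WT kidney (vertical axis) against each other WT tissue (horizontal axis) for the 207 tested sites that met the criteria in at least 1 tissue; the line marks equal levels. Most points lie below the line in the heart panel, where kidney was below at 184 of the 207 sites, a set to which heart gave the most sites.

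At 6 sites no other tissue met the criteria. Besides both Gm14414 sites and Rps19-ps2 they lay in Tkt, Elf1 and Tuba1a. Tkt encodes transketolase of the pentose phosphate pathway, and its site had 0.0722 and 0.0360 in kidney but 0.120 in liver replicate 1. At Tuba1a, a tubulin, kidney had 3 of 27 and 3 of 49 unconverted reads, above all 8 other libraries, of which spleen replicate 1 was highest with 8 of 143. This was the 1 tested site with both kidney libraries above all 8 others (edgeR adjusted p = 1).

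Both kidney libraries lay below all 8 others at 2 tested sites. At Tmem50a, kidney had 0.0568 and 0.0579 and the other libraries between 0.0636 and 0.216. At Tapbp, the tapasin gene of peptide loading, the kidney libraries had 1 of 49 and 1 of 31 unconverted reads, and the others between 0.0379 and 0.50. Neither passed the test (edgeR adjusted p = 1).

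The highest levels among commonly covered sites showed several orders of tissues. Ccdc107 had 0.426 and 0.323 in kidney. Liver, at 0.580 and 0.503, and heart, at 0.554 and 0.482, were above it, and small intestine, at 0.147 and 0.180, and spleen, at 0.174 and 0.0234, were below. No tissue overlapped kidney at Ccdc107, but the contrast with the mean of the others did not pass the test (edgeR adjusted p = 1).

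Oaz1 encodes ornithine decarboxylase antizyme, which limits polyamine synthesis. Its 3′ UTR site had 0.295 and 0.315 in kidney, which lay above both libraries of small intestine, spleen and heart and between the liver libraries at 0.246 and 0.348. Tcn2, a carrier of vitamin B12, had a CNGGG site with 0.207 and 0.187 in kidney from 2467 and 4101 reads. KO kidney had 0.185 in both libraries. WT small intestine, at 0.105 and 0.0770, and WT spleen, at 0.0571 and 0.0646, were below WT kidney. WT liver, at 0.239 and 0.0891, and WT heart, at 0.111 and 0.196, overlapped it.

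Rela, the p65 subunit of NF-kappaB, had 0.231 and 0.370 in kidney from 39 and 54 reads, and the other tissues overlapped it. Ybx3, a cold-shock domain protein that binds nucleic acids, had 0.20 and 0.364, below both heart libraries at 0.448 and 0.403. Sec61a1, the channel of protein entry into the endoplasmic reticulum, had 0.229 and 0.203, below both liver libraries at 0.412 and 0.452. The spread between kidney libraries at Rela and Ybx3 was larger than at Oaz1, Tcn2 and Sec61a1.

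Kidney sites were grouped by motif and read in KO kidney. The motif CTCCA was present at 16 of the 154 kidney sites (10.4%) and at 1.07% of the covered sites, and CNGGG at 31 (20.1%) and 3.68%. Both were searched on the transcribed strand with the site as the first base, so they cannot both match. Of the 14 CTCCA sites with 20 reads in both KO kidney libraries, 0 met the criteria there and 14 had 0 unconverted reads in both. For CNGGG 17 of 26 met the criteria in KO kidney, and for other sites 51 of 84. NSUN6 is known to use this motif, so its loss in KO is given as a description, with no test. As a description made after seeing the data, 56 of the 154 sites (36.4%) began with CAG, against 15.1% of the covered sites.

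**Figure D4:**
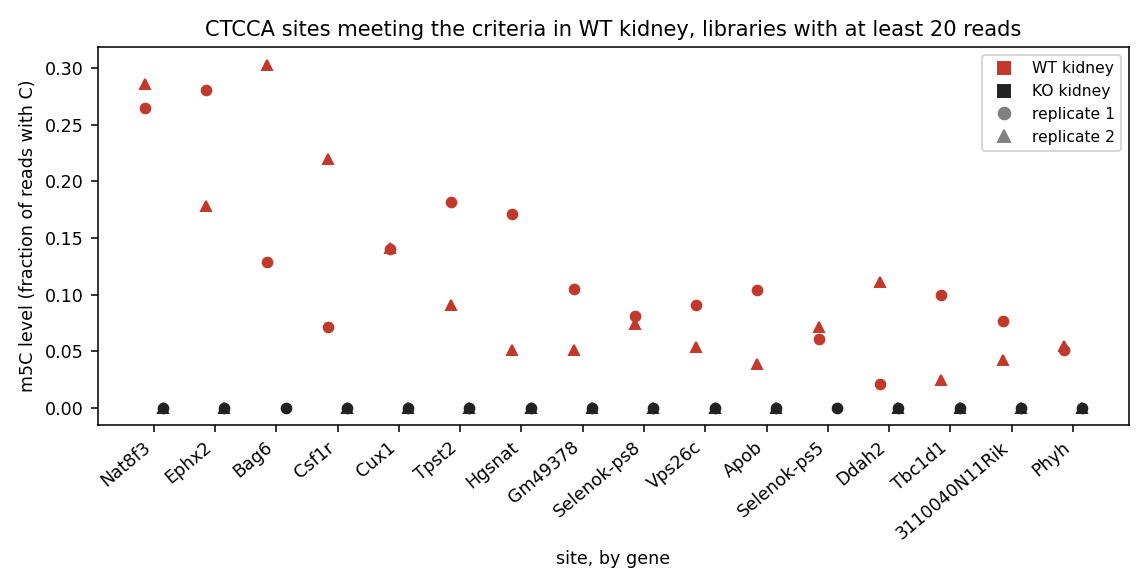
m5C level (fraction of reads) of the 16 CTCCA sites that met the criteria in WT kidney, in WT (red) and KO (black) kidney libraries with at least 20 reads, with shapes for replicates. All KO points lie at 0, and WT points reach 0.303 at Bag6.

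The CTCCA site of Ephx2, the soluble epoxide hydrolase that degrades epoxides of fatty acids, had 25 of 89 and 134 of 751 unconverted reads, or 0.281 and 0.178. Small intestine had 0.0853 and 0.108 there, and both KO kidney libraries 0. Phyh, which starts the breakdown of phytanic acid in peroxisomes, had 0.0506 and 0.0545 in kidney and 0.479 and 0.134 in heart. Its kidney libraries were close together and its heart libraries were not.

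Apob, the main protein of low-density lipoprotein, is known for its production by liver and intestine. In kidney its CTCCA site had 27 of 260 and 3 of 77 unconverted reads, or 0.104 and 0.0390. The more deeply covered libraries of small intestine, at 0.0126 and 0.0128, and of liver, at 0.00245 and 0.00144, were below both. Spleen and heart had no listed value, so the site was not among those tested.

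Cux1, a transcription factor, had 0.14 and 0.141 in kidney and 0.141 and 0.145 in heart, so these tissues differed by less than 0.01, and 0 of 25 and 0 of 26 unconverted reads in spleen. Hgsnat, a lysosomal enzyme of heparan sulfate breakdown, had 0.171 and 0.0508 from 35 and 59 reads, and Tpst2, which sulfates tyrosines, 0.182 and 0.0909 from 33 and 22. Csf1r, the receptor of macrophage colony-stimulating factor, had 0.0714 and 0.220 in kidney, below both spleen libraries at 0.407 and 0.323. The remaining CTCCA sites lay in Bag6, Gm49378, Vps26c, Ddah2, Tbc1d1, 3110040N11Rik and the pseudogenes Selenok-ps8 and Selenok-ps5, which share 1 window sequence and may share reads.

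The kidney-only sites were counted by marker list, which their coverage in kidney alone favours. Proximal tubule genes held 13, of the 62 sites of that list covered in both kidney libraries, and loop and distal genes 5 of 24. Collecting duct and glomerulus genes held 0 of 2 and 0 of 1, and solute carriers held 11 of 216, in 9 genes. Among all sites covered in both kidney libraries, 1.12% were kidney-only. Acsm2, a medium-chain acyl-CoA synthetase of the proximal tubule, held 4, and Lrp2, the endocytic receptor megalin, 3. Genes with Hox names held 8 in 6 genes, including the noncoding Hoxb5os. Their covered sites were not counted, so no share is given. Of the 8, only the Hoxa9 site in exon 1 had unconverted reads in WT kidney, 3 of 22 in replicate 1. The others had 0 in both WT kidney libraries and were passed in KO libraries alone. Hox proteins specify position along the body axis. A library with no listed value here may have had fewer than 10 reads, the lowest coverage listed, or no value for another reason.

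Most of the kidney-only sites showed no unconverted reads in WT kidney. Both libraries had 0 at 101 sites, as given above. A WT kidney library passed 20 of the kidney-only sites in the authors' calls. No WT library passed the other 113, which were listed through KO libraries. That way of listing favours low counts in WT. How many kidney transcripts lack m5C therefore cannot be read from these sites. KO kidney replicate 2 passed 87 sites, 85 of which no WT library passed, and KO kidney replicate 1 passed 5. KO kidney replicate 2 stood apart from the other kidney libraries, with a pooled level of 3.64% against 0.603% in KO kidney replicate 1.

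The values of transporter sites follow. Slc4a4, which carries bicarbonate out of proximal tubule cells, had 0 of 295 and 2 of 675 unconverted reads in WT kidney, 1 of 973 in KO kidney replicate 1 and 22 of 113 in KO kidney replicate 2. Both sites of Slc1a1, a glutamate transporter, had 0 in both WT libraries and at most 1 in KO kidney replicate 1, with 11 of 42 and 23 of 57 in KO kidney replicate 2. At Slc22a6, the organic anion transporter of the proximal tubule, a CNGGG site had 0 of 20 and 7 of 130 in WT and 9 of 81 in KO kidney replicate 1.

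The 3 Lrp2 sites had 0 unconverted reads among 20 to 421 in WT kidney, and levels of 0.105, 0.245 and 0.211 in KO kidney replicate 2. Bsnd encodes barttin, a chloride channel subunit of the loop, and its 2 sites had 0 in WT kidney and levels of 0.139 and 0.196 in that library. Rhcg, an ammonia transporter of the collecting duct, had 0 of 37 and 0 of 51 in WT kidney and 27 of 84 in that library. KO kidney replicate 1 had 0 unconverted reads at both Bsnd sites and at Rhcg.

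The criteria were met by 11 kidney-only sites (8.27%), and 8 of these were covered in both KO kidney libraries. Over all 11925 sites covered in both kidney libraries the share was 1.29%. With fewer than 20 reads there, no other WT tissue could have passed a kidney-only site, whereas the 11925 were listed through any library. The 2 shares therefore cannot be compared as shares of methylated sites. Nat8f3, of a family of kidney and liver N-acetyltransferases, was highest, with 36 of 136 and 22 of 77 unconverted reads, a level of 0.275 ± 0.0149 (SD, n = 2). KO kidney had 0 of 161 and 0 of 155 there. It was the 1 CTCCA site among the 11.

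Slc13a3, the sodium-dicarboxylate cotransporter, had a CNGGG site in its 3′ UTR with 0.172 and 0.0701 from 769 and 656 reads. KO kidney had 0.154 and 0.167, so WT and KO overlapped. Slc22a12, the urate transporter, had 0.0578 and 0.0457 from 536 and 1335 reads in WT kidney and 0.050 and 0.166 in KO kidney. Both transporters thus kept unconverted reads in all 4 kidney libraries.

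Gm10681 had 26 of 145 and 43 of 326 unconverted reads in WT kidney, or 0.179 and 0.132, and 3 of 422 and 0 of 147 in KO kidney. KO heart replicate 2 had 2 of 14 there, at a coverage below 20 reads. The window of Gm10681 holds no CTCCA at the site, and how far related gene copies took part was not tested. Dao, the D-amino acid oxidase of the proximal tubule, had 2 of 20 and 8 of 59 in WT, and 3 of 32 and 0 of 99 in KO. Nox4, a renal NADPH oxidase, had 8 of 41 and 2 of 554, so its mean of 0.0994 ± 0.135 (SD, n = 2) came from 1 library.

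The other members were Itgb8, an integrin subunit, Pde4c, a cAMP phosphodiesterase, Bicc1, an RNA-binding protein whose loss gives cystic kidneys in mice, AC109619.1 and Gm44120. Itgb8 had 0.115 and 0.0874 in WT kidney and 0.0888 and 0.593 in KO. Bicc1 had 0.0909 and 0.0826 in WT kidney and 0.0290 and 0.152 in KO. Of the 8 sites covered in both KO kidney libraries, 4 met the criteria there.

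**Figure D5:**
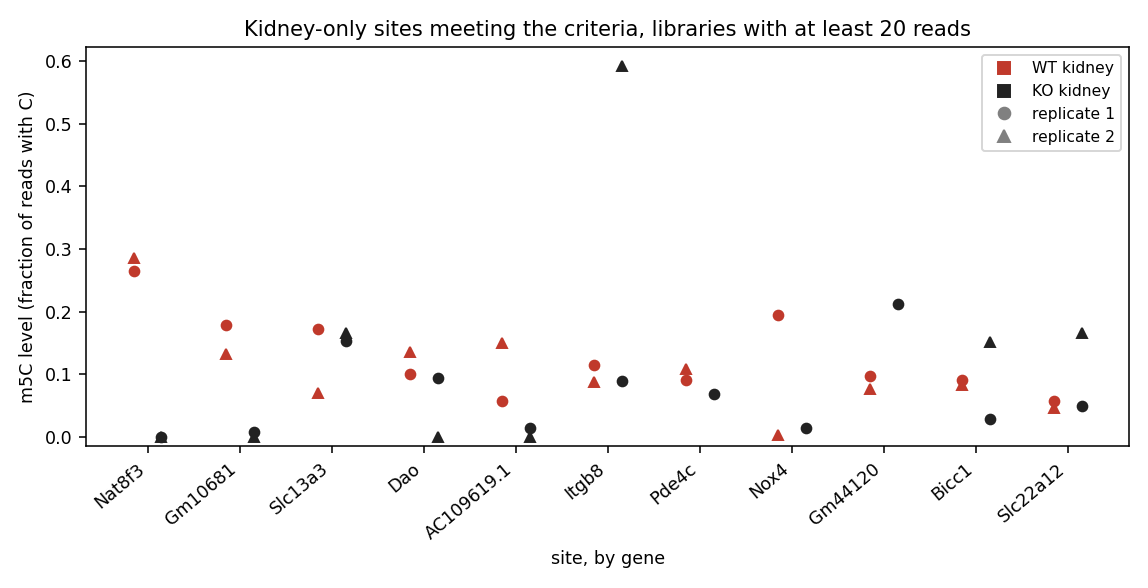
m5C level (fraction of reads) of the 11 kidney-only sites that met the criteria in WT kidney, in WT (red) and KO (black) kidney libraries with at least 20 reads, with shapes for replicates. KO points of Nat8f3 lie at 0, those of Slc13a3 overlap WT, and KO replicate 2 lies highest at Itgb8, Bicc1 and Slc22a12.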

How the data were processed

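mRNA of 5 tissues from WT and Nsun6 KO mice was treated with bisulfite and sequenced by the authors in stranded libraries, 20 in all. Sites were called by the authors on mm10. Neither the aligner nor the strand setting of the counting is given in the sources used here. The deposited table gives, per site and library, coverage and unconverted reads as counts, and the level as a fraction that equals the ratio of these counts. The authors' other 60 columns, which hold their p-values, nonconversion rates and signal values, were not used here. The lowest values among sites passed by the authors were 20 reads, 3 unconverted and a level of 0.1, and the lowest coverage listed was 10. Of the 32378 sites, 31444 were passed in 1 library. A gene was given for 27803, and 10237 of 10243 gene identifiers were in GENCODE M21, which with mm10 gave regions, exons and windows (reference C at all 32365 sites with sequence).

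The edgeR package (4.0.16; glmQLFit, glmQLFTest; R 4.3.3) was fitted to unconverted and converted counts, with an intercept per library and a methylation term per tissue over the 10 WT libraries. Tests were two-sided, with Benjamini-Hochberg adjustment at 0.05 within a contrast. Tested sites had at least 20 reads in all libraries, 10 unconverted reads in all and a mean level of 0.01. Log2 odds ratios are kidney minus the other tissue. The prior degrees of freedom, the weight on the pooled spread, were infinite in the main fit and in the KO fit. In the fit of the KO-passed set they were 25.5. Limma 3.58.1 on logit levels (0.5 added to both counts), other filters, offsets and left-out libraries were alternatives. In counts simulated for the 990 sites, 200 were changed, and only the contrast with the other 4 tissues was run. There edgeR recovered 6% of changes of 4-fold odds and 40% of 8-fold, with 0% false calls. The simulation used the same spread setting at every site and had no term for a level raised in a single library. Its share of false calls therefore does not carry over to comparisons with single tissues, such as those at Cd74, Ahcy, Idh2 and Asl. Limits for a count of 0 are 3 counts divided by the reads. Python 3.11.15 with pandas 2.3.3, numpy 2.4.6 and matplotlib 3.10.9 made tables and figures.

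The members, gene lists and tests were chosen with earlier results of these data known. Named sites are up to 15 called higher and 15 lower, the 10 highest kidney levels among common sites meeting the criteria, 15 kidney-only sites meeting them and the 10 most covered, CTCCA sites meeting them, and up to 4 members per list. Sites named for the KO-passed set, for no overlap with other libraries, for no other tissue meeting the criteria, and as kidney-only without unconverted reads were chosen after their values were seen, as was the CAG count.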

Additional observations from a re-analysis of the deposited data

How the results depend on the processing

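Results against liver, and the difference between WT and KO, gave 0 calls in every alternative run. Limma gave 0 calls in all contrasts. Without a filter on low levels, calls numbered 0 lower than the mean of the others, 0 higher than small intestine, 0 higher and 0 lower than spleen. Requiring the criteria in at least 1 tissue gave 3 higher and 2 lower than the others and 5 higher than small intestine. It gave 0 lower than spleen, and 2 higher and 44 lower than heart. This choice of sites used the WT levels under test. Heart met the criteria at the most sites, 179 of 3098, which favours calls lower than heart. KO-passed sites gave 3 higher and 2 lower than the others, 5 higher than small intestine, 0 lower than spleen and 25 lower than heart. Fitting 2 groups gave 0 lower than the others. The planned offset gave 0 lower than the others, 0 higher than small intestine, 0 higher and 1 lower than spleen and 0 lower than heart, and turned the log2 odds ratio against heart to 0.56 at Rpl23, 0.10 at the second Rps14 site, 0.25 at Rps21 and 0.79 at Rps9. The offset added after seeing the data gave 0 lower than the others, 0 higher than small intestine and 0 higher or lower than spleen. It gave 5 lower than heart and turned none. Both offsets scale the odds of every level, with the limit given above. At a minimum of 10 reads there were 0 higher than small intestine and 0 higher and 1 lower than spleen, and at 40 reads 2 higher than small intestine and 1 lower than spleen. With the 4 libraries of each pair alone there were 0 higher than small intestine, 2 higher and 1 lower than spleen and 38 lower than heart.

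Leaving out 1 library gave 0 to 2 lower than the others, 0 to 2 higher than small intestine, 0 to 2 higher and 0 to 4 lower than spleen, and 8 to 19 lower than heart (16 without liver replicate 1, 19 without spleen replicate 2). The spleen calls were lost without either kidney library.

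With the replicate number as a block there were 0 higher and 1 lower than the others, 1 higher than small intestine, 1 higher and 3 lower than spleen and 13 lower than heart. Same-numbered libraries correlated between -0.123 and 0.158 in their deviations, so the numbers were not taken as pairing.

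Criteria sites in kidney were 67 at a mean level of 0.1 and 229 to 907 with 1 kidney library left out. Kidney-only sites were 756 where other tissues only had to lack 20 reads in 1 of their libraries, 37 with 40 reads and no value elsewhere, and 154 to 620 without 1 kidney library. Those meeting the criteria were 18, 5, and 21 to 242 without 1 kidney library.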

Other observations

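Both WT kidney libraries differed in which abundant transcripts they covered. Kidney replicate 1 had no value at any of the 24 listed mitochondrial sites, whereas replicate 2 had a value at 19, with 656453 reads or 20.2% of its reads over listed sites. KO kidney showed the same contrast, with 0 sites in replicate 1 and 18 sites and 1.4% of reads in replicate 2. The lack of values was not particular to kidney. WT liver replicate 1 and both WT heart libraries also had no value at any mitochondrial site. Of 254 sites with at least 1000 reads in kidney replicate 2, 9 had no value in replicate 1, and 7 of these were mitochondrial. All 88 such sites of replicate 1 had a value in replicate 2. The 990 tested sites needed reads in both libraries.

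Kap, the kidney androgen-regulated protein gene of the proximal tubule, had no listed reads in WT kidney replicate 1 and 11992 in replicate 2, of which 12 were unconverted. KO kidney had 6144 and 148, and KO heart replicate 2 had 767, of which 306 were unconverted. The cause of these differences between libraries was not tested.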
